A study of Homo sapiens with 9 samples.

Results

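The ATR and ATM checkpoint kinases and the proteins that switch them on or carry their signal were followed at the RNA level in SET2 cells with and without *DYRK1A*. The set holds 10 genes, taken by symbol from a table of 60662 genes: the kinases *ATM* and *ATR* with the ATR partner *ATRIP*, the checkpoint clamp *RAD9A*, *RAD1* and *HUS1* with the ATR activator *TOPBP1*, and the effector kinases *CHEK1*, *CHEK2* and *WEE1*. All 10 were found once in the table and all passed the filter on low counts in every comparison. Bulk RNA-seq covered untreated WT SET2 cells (n = 3 libraries) and untreated *DYRK1A* KO cells of 2 clones, 11H1 (n = 3) and 14B5 (n = 3). SET2 is a *JAK2* mutant megakaryoblastic line, labelled as AML that arose after a myeloproliferative neoplasm. The KO clones were made with a Cas9 ribonucleoprotein and each was grown from a single sorted cell, so the libraries of a clone share its founder, and no clone of an unedited cell was sequenced. The labels do not say that libraries of a group came from separate cultures, so p values measure the spread between these libraries, which may be technical.

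ATM responds to DNA double-strand breaks and ATR to single-stranded DNA at stalled replication forks, which is coated by the RPA proteins and bound by ATRIP. The clamp of RAD9A, RAD1 and HUS1 is loaded at such sites and brings TOPBP1 to ATR. CHEK1, mostly downstream of ATR, and CHEK2, mostly downstream of ATM, then slow the cycle through the CDC25 phosphatases, while WEE1 holds CDK1 and CDK2 inactive by phosphorylating them. DYRK1A phosphorylates LIN52, a step in assembling the DREAM complex, which represses many cell cycle genes through E2F-type and CHR elements in their promoters.

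Promoter windows from 250 bases before to 50 after the start site were given by RefSeq (GRCh38.p14) for 8 of the 10 genes, in 12 windows. *WEE1* and *HUS1* had no entry. The letters of an E2F-type site (TTTGGCGC, TTTCCCGC, TTTCGCGC or TTTGCCGC, on either strand) were present in 3.31% of 35116 windows over all genes, and in the window of *TOPBP1* alone among the 8 genes. The letters of a CHR (TTTGAA or TTCGAA, on either strand; the second reads the same on both) were present in 16.4% of all windows and in a single window of *ATM* among the 8 genes. The 2 stretches are shown because these are the only matches of either type; capitals mark the matched letters, the *TOPBP1* match lying on the reverse strand of the gene, beginning 7 bases before its start, and the *ATM* match beginning 20 bases before its start.
*TOPBP1* (chr3:133661930-133661959, minus strand): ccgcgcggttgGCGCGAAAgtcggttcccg
*ATM* (chr11:108223035-108223064, plus strand): agtcacgcagggTTTGAAccggaagcggga
The box CCAAT, searched on both strands, was in 34.6% of all windows and in 9 of the 12 windows of these genes. Those 9 belong to 5 of the 8 genes, *ATM*, *ATRIP*, *RAD9A*, *CHEK1* and *CHEK2*. Windows of the same gene can share a box, and the share per gene was not computed over all genes. A match describes the letters of the window only, and no binding was measured here.

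The targeted gene, *DYRK1A*, read 197, 196 and 219 CPM in the WT libraries, against 188, 191 and 192 in 11H1 and 191, 182 and 174 in 14B5, where CPM is the count scaled to a common library size after TMM normalization. All KO values were thus below all WT values, but the RNA was not lost, and a count per gene cannot tell whether the frame is intact. By targeted sequencing, the study took as KO those clones whose indels were all out of frame, and it checked the protein by western blot. In edgeR the log2FC was −0.09 in 11H1 (adjusted p = 0.131) and −0.17 in 14B5 (adjusted p = 0.0278). Between 32347779 and 60272245 expected counts were held per library, and mitochondrial genes took from 7.23% to 7.39% in 11H1, from 3.30% to 3.92% in 14B5 and from 3.54% to 6.03% in WT. Of 11 megakaryoblast markers 9 were lower in KO than in WT and 1 was higher (*TAL1*, a transcription factor of the lineage), with a sum of 2454 to 2590 CPM in WT, 1750 to 1809 CPM in 11H1 and 1709 to 1711 CPM in 14B5. The platelet glycoprotein gene *GP9* was at 22.2 ± 2.11 CPM (SD, n = 3) in WT, 4.27 ± 0.527 CPM in 11H1 and 0.804 ± 0.216 CPM in 14B5. *PF4*, a platelet chemokine, was at 0.510 CPM in WT and had no counts in any KO library, which allows up to 0.0927 CPM in the smallest of them. Markers of other cell types were low, with sums of at most 24.3 CPM for 5 T and B cell genes, most of it *CD79A*, and at most 7.38 CPM for 5 stromal and epithelial genes, of which *KRT8* and *PDGFRB* were lower in KO. The part of these shifts in the changes of the checkpoint genes was not tested.

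Of the 10 checkpoint genes, 4 passed the threshold in KO versus WT (6 libraries against 3), all of them higher: *WEE1*, *RAD9A*, *TOPBP1* and *CHEK1*. The background was 32.0% of 17080 genes called in either direction and 14.3% called higher. In 11H1 versus WT 7 were higher and *CHEK2* was lower, against a background of 64.6% called (31.8% higher, 32.8% lower); without 11H1 replicate 1 the counts were 4 and 1. In 14B5 versus WT 5 were higher and none lower, against 53.5% called (24.9% higher). The counts of genes called in either direction, 4, 8 and 5 of 10, thus lay near what all genes gave, whereas no member was lower in KO and 1 was lower in a clone. Genes called higher in both clones numbered 5 of 10, namely *RAD9A*, *RAD1*, *TOPBP1*, *CHEK1* and *WEE1*, where 14.1% of all genes were so called; both clones were set against the same WT libraries. The median log2FC of the 10 genes was 0.24 in KO, 0.20 in 11H1 and 0.23 in 14B5, and that of all genes tested was 0.02, −0.01 and −0.01. In bulk RNA a change in the share of cells in a given state and a change in RNA per cell cannot be told apart.

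**Figure D1:**
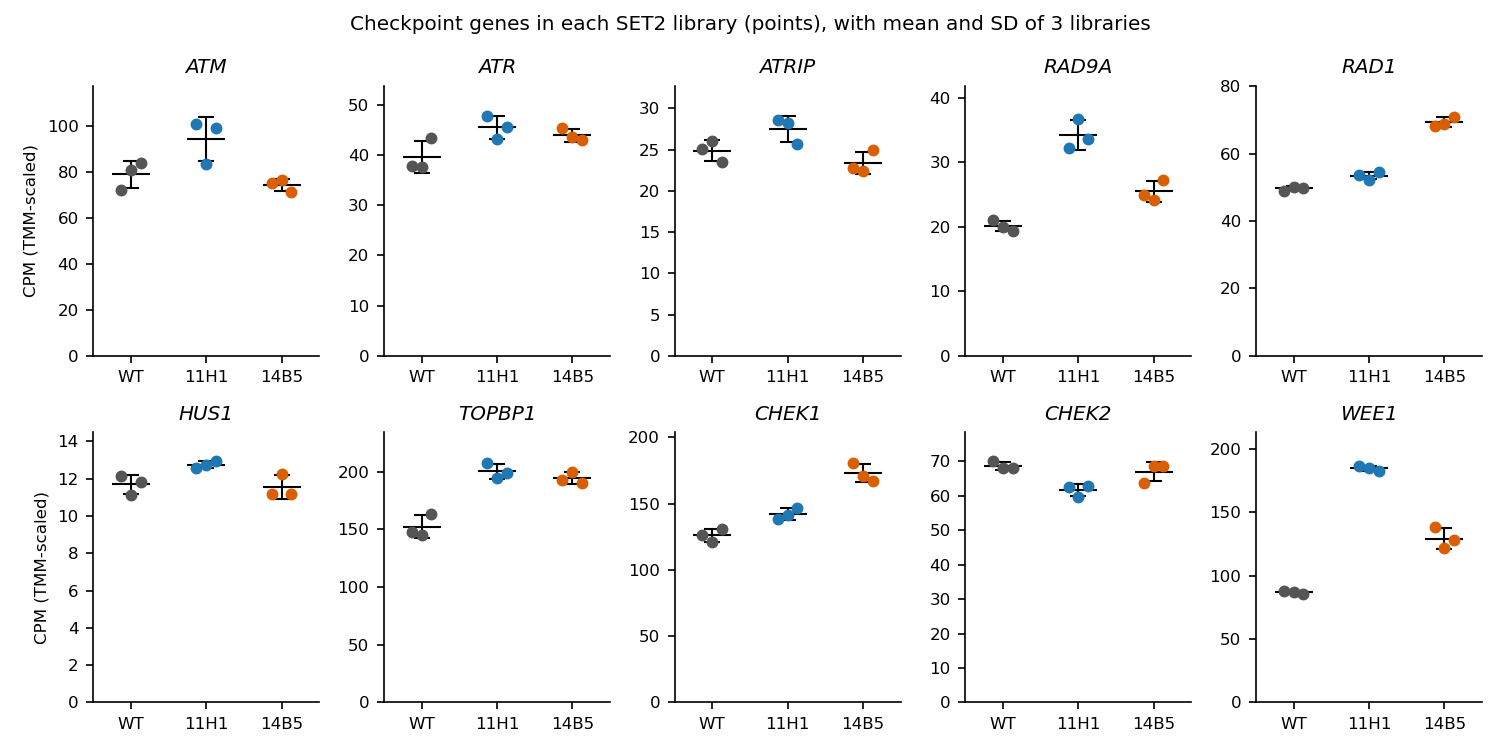
Level of each of the 10 checkpoint genes in CPM (y axis, from 0) in each library (points), by group (x axis), with the mean (horizontal line) and SD (bar) of 3 libraries. *WEE1* rises from 85.3 to 87.7 CPM in WT to 182.6 to 186 CPM in 11H1, and *RAD1* and *CHEK1* are highest in 14B5.

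Neither apical kinase passed in KO versus WT with all libraries in the fit, and both were higher in 11H1. *ATM* (ENSG00000149311.18, chromosome 11 from 108222484 to 108369102, plus strand, GRCh38) read 72.3, 80.8 and 83.6 CPM in the WT libraries, against 101, 83.3 and 98.8 in 11H1 and 75.0, 76.4 and 71.2 in 14B5. 11H1 replicate 2 lay within the WT range and the other two 11H1 libraries above it. Against WT, *ATM* was higher in 11H1 (log2FC 0.27, standard error 0.08, adjusted p = 0.00850 in edgeR) and stood at −0.10 in 14B5 (95% confidence interval −0.24 to 0.03, adjusted p = 0.171). Without 11H1 replicate 1 the 11H1 difference was 0.21 with an adjusted p of 0.0543 in edgeR. In 14B5 *ATM* was called lower without WT replicate 1 (−0.16, adjusted p = 0.0406 in edgeR) and was at −0.05 without WT replicate 3. The clones themselves differed, with *ATM* higher in 11H1 than in 14B5 by a log2FC of 0.35 (standard error 0.07, adjusted p = 6.00e-04 in edgeR), and the libraries of the 2 clones did not overlap.

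*ATR* (chromosome 3 from 142449235 to 142578826, minus strand) read 37.9, 37.6 and 43.4 CPM in the WT libraries, against 47.8, 43.3 and 45.5 in 11H1 and 45.4, 43.6 and 42.9 in 14B5. WT replicate 3 reached into the range of both clones. The log2FC was 0.21 in 11H1 (standard error 0.06, adjusted p = 0.0129 in edgeR) and 0.13 in 14B5 (95% confidence interval −0.0039 to 0.27, adjusted p = 0.0926). The call in 11H1 was lost in edgeR without WT replicate 1, WT replicate 2 or 11H1 replicate 1 (adjusted p 0.0516 to 0.0752), and 14B5 passed without WT replicate 3 (adjusted p = 0.00624). KO versus WT stood at 0.18 (adjusted p = 0.0670 in edgeR) and passed without WT replicate 3 (0.25, adjusted p = 0.0256) and in a fit of 3 groups (adjusted p = 0.0111). The difference between the clones was 0.06 (95% confidence interval −0.05 to 0.17, adjusted p = 0.322).

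*ATRIP*, which binds RPA and carries ATR to it (chromosome 3 from 48446710 to 48467645, plus strand), read 25.1, 26.1 and 23.5 CPM in the WT libraries, against 28.6, 28.2 and 25.6 in 11H1 and 22.8, 22.4 and 25.0 in 14B5. The groups overlapped in both comparisons with WT, and neither passed (log2FC 0.15 and −0.11, adjusted p = 0.0563 and 0.188 in edgeR). In 11H1 it was called higher without 11H1 replicate 3 (0.20, adjusted p = 0.0268 in edgeR). Between the clones *ATRIP* was higher in 11H1, by 0.24 (standard error 0.06, adjusted p = 0.00474 in edgeR), with no overlap. Its counts were not whole numbers in any of the 9 libraries, since reads were divided with *TREX1*, which overlaps it on the same strand, so its level is less certain than that of the others.

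Of the clamp subunits, *RAD9A* and *RAD1* were called higher in both clones and *HUS1* in neither. *RAD9A*, the subunit whose tail binds TOPBP1 (chromosome 11 from 67317871 to 67398410, plus strand), read 21.0, 20.0 and 19.4 CPM in the WT libraries, against 32.3, 36.8 and 33.6 in 11H1 and 24.9, 24.2 and 27.3 in 14B5. The 3 groups did not overlap, with 11H1 highest. *RAD9A* rose by a log2FC of 0.77 in 11H1 (standard error 0.06, adjusted p = 6.26e-07 in edgeR) and of 0.32 in 14B5 (standard error 0.06, adjusted p = 0.00172), and in KO versus WT by 0.57 (standard error 0.14, adjusted p = 0.0111). Between 11H1 and 14B5 the gap was 0.43 (adjusted p = 9.12e-05 in edgeR). On the opposite strand its span overlaps *POLD4*, *CLCF1* and *PPP1CA*, and whether counting used strand is not given in the sources used here. That limit also holds for *ATM*, *RAD1* and *CHEK2*, which overlap the counted genes *NPAT*, *BRIX1* and *HSCB* on the opposite strand. *CHEK1* overlaps the counted gene *STT3A* on the same strand.

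*RAD1* (chromosome 5 from 34905264 to 34918989, minus strand) showed the other order of the clones and read 49.0, 50.2 and 49.8 CPM in the WT libraries, against 53.7, 52.3 and 54.4 in 11H1 and 68.3, 68.6 and 70.9 in 14B5. Again the 3 groups did not overlap, with 14B5 highest. It rose in 14B5 by a log2FC of 0.46 (standard error 0.04, adjusted p = 1.22e-05 in edgeR). In 11H1 the log2FC was 0.11 (adjusted p = 0.0447 in edgeR), a call lost in 9 of 12 alternatives (adjusted p 0.0378 to 0.235 over all 12), among them each library of the comparison left out apart from WT replicate 3. *RAD1* was lower in 11H1 than in 14B5 by a log2FC of −0.37 (standard error 0.04, adjusted p = 1.57e-05 in edgeR), and KO versus WT, which pools the clones, did not pass (0.31, adjusted p = 0.0655), although it passed without any single 11H1 library (adjusted p 0.0365 to 0.0498).

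*HUS1* (chromosome 7 from 47963288 to 47979553, minus strand) was the lowest of the 10 in CPM per kb and read 12.1, 11.1 and 11.8 CPM in the WT libraries, against 12.6, 12.8 and 12.9 in 11H1 and 11.2, 12.3 and 11.2 in 14B5. No comparison of *HUS1* passed the threshold: the log2FC was 0.13 in 11H1 (95% confidence interval −0.02 to 0.28, adjusted p = 0.116 in edgeR) and −0.03 in 14B5 (−0.20 to 0.13, adjusted p = 0.727). Between the clones it was 0.15 (adjusted p = 0.0633 in edgeR), and 0.19 without 14B5 replicate 2 (adjusted p = 0.0387). The paralogs of clamp subunits were low, *RAD9B* at 0.126 to 0.224 CPM in WT, 0.335 to 0.385 CPM in 11H1 and 0.104 to 0.226 CPM in 14B5, and *HUS1B* at 0.0606 to 0.267 CPM over the 9 libraries. *RAD9B* was called higher in 11H1 than in WT (log2FC 1.13, adjusted p = 0.0132 in edgeR) and than in 14B5 (1.22, adjusted p = 0.0111). *WEE2*, the oocyte relative of *WEE1*, had no counts in any of them.

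*TOPBP1*, which carries the domain that activates ATR (chromosome 3 from 133598175 to 133662380, minus strand), read 148, 145 and 164 CPM in the WT libraries, against 207, 194 and 199 in 11H1 and 193, 200.1 and 190.2 in 14B5. Every KO library lay above every WT library and the clones overlapped. It rose in KO by a log2FC of 0.37 (standard error 0.06, adjusted p = 8.76e-04 in edgeR), in 11H1 by 0.40 (adjusted p = 4.36e-05) and in 14B5 by 0.34 (adjusted p = 4.81e-04). The difference between the clones was 0.05 (95% confidence interval −0.05 to 0.14, adjusted p = 0.351 in edgeR). Its E2F-type match, shown among the promoter stretches, is the only one in the windows of these genes.

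Among the 10 genes, *WEE1* had the largest log2FC in each clone. This kinase, which restrains entry into mitosis and CDK2 activity in S phase (chromosome 11 from 9573681 to 9593457, plus strand), read 87.7, 87.2 and 85.3 CPM in the WT libraries, against 186, 185 and 182.6 in 11H1 and 138, 121 and 128 in 14B5. The 3 groups did not overlap. *WEE1* was 2.14-fold higher in 11H1 (log2FC 1.10, standard error 0.04, adjusted p = 1.84e-09 in edgeR) and 1.47-fold higher in 14B5 (log2FC 0.56, standard error 0.06, adjusted p = 1.75e-05). The clones differed by 0.52 (standard error 0.05, adjusted p = 3.37e-06 in edgeR). In KO versus WT the log2FC was 0.85 (standard error 0.16, adjusted p = 0.00242 in edgeR).

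*CHEK1* (chromosome 11 from 125625136 to 125676255, plus strand) read 126, 121 and 131 CPM in the WT libraries, against 139, 141 and 147 in 11H1 and 180.4, 171 and 167 in 14B5. The 3 groups did not overlap, with 14B5 highest, the order that *RAD1* had. *CHEK1* rose by a log2FC of 0.18 in 11H1 (standard error 0.05, adjusted p = 0.00464 in edgeR) and of 0.44 in 14B5 (standard error 0.05, adjusted p = 4.50e-05), with 11H1 below 14B5 by a log2FC of −0.27 (adjusted p = 2.22e-04). In KO versus WT it passed at 0.32 (standard error 0.09, adjusted p = 0.0252 in edgeR), but not when WT replicate 1, 2 or 3 was left out (adjusted p 0.061 to 0.10).

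*CHEK2* (chromosome 22 from 28687743 to 28742422, minus strand) was the one member called lower than WT with all libraries in the fit. It read 70.0, 68.1 and 68.0 CPM in the WT libraries, against 62.7, 59.6 and 62.8 in 11H1 and 63.8, 68.7 and 68.5 in 14B5. All 11H1 libraries lay below WT, whereas those of 14B5 overlapped with WT. The log2FC was −0.15 in 11H1 (standard error 0.05, adjusted p = 0.0142 in edgeR), with an adjusted p of 0.0750 without 11H1 replicate 2, and −0.05 in 14B5 (95% confidence interval −0.16 to 0.05, adjusted p = 0.386). Between 11H1 and 14B5 the gap was −0.11 (adjusted p = 0.0552 in edgeR), which passed without 14B5 replicate 1 (−0.15, adjusted p = 0.0179). The 4 *CHEK2* pseudogenes listed in the table had no counts.

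**Figure D2:**
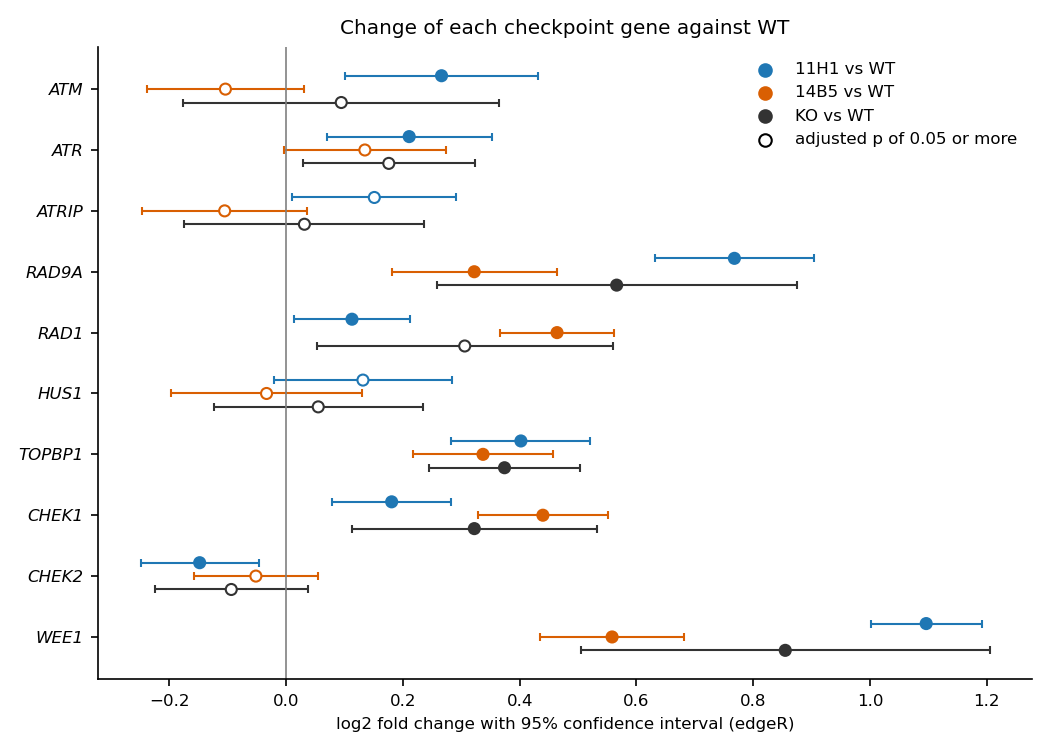
log2FC of each checkpoint gene (rows) in 11H1, 14B5 and pooled KO against WT, with its 95% confidence interval from edgeR; filled points have an adjusted p under 0.05. *WEE1* and *RAD9A* lie farther right in 11H1 (1.10 and 0.77), *RAD1* and *CHEK1* in 14B5 (0.46 and 0.44), and *TOPBP1* at a similar place in each (0.40 and 0.34).

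Compared directly, 6 of the 10 genes differed between the clones, against a background of 63.7% of genes (31.6% higher in 11H1, 32.1% lower): *ATM*, *ATRIP*, *RAD9A* and *WEE1* were higher in 11H1, and *RAD1* and *CHEK1* higher in 14B5. The pooled comparison carries such gaps between the clones in its error. The 2-sided exact permutation test on CPM in KO versus WT gave an unadjusted p of 0.0119 for *TOPBP1*, the smallest that 6 libraries against 3 allow, and of 0.0238 for *RAD9A*, *RAD1*, *CHEK1* and *WEE1*. It treats all libraries as interchangeable, although the KO libraries come from separate clones, each with its own founder cell. With 3 libraries against 3 an exact permutation test cannot go below 0.1. Within 5 Mb of each member, a median log2FC of its neighbours of −0.17 to 0.20 was found over the comparisons, so that the 0.85 of *WEE1* in KO stood at 0.89 relative to its 73 neighbours, and the 0.57 of *RAD9A* at 0.49 relative to 222. Of the called values, 2 moved by over 1.5 times when taken relative to the neighbours, *ATR* in 11H1 from 0.21 to 0.33 and *CHEK1* in 11H1 from 0.18 to 0.10. Among values that were not called, *HUS1* turned from 0.06 to −0.14 in KO and from 0.15 to −0.03 between the clones, *ATRIP* turned from 0.03 to −0.01 in KO, and *CHEK2* between the clones went from −0.11 to −0.21. Other uncalled values moved too, among them *ATR* between the clones, from 0.06 to 0.23. In 11H1 *HUS1* went from 0.13 to 0.04 and *ATRIP* from 0.15 to 0.07, and in 14B5 *ATM* went from −0.10 to −0.18.

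Levels of different genes were compared per kb of the annotated transcript with the longest coding sequence, and again per kb of all exons merged. In WT, *CHEK1* (72.6 to 78.2 CPM per kb of transcript), *CHEK2* (34.5 to 35.5), *WEE1* (30.5 to 31.3) and *TOPBP1* (27.0 to 30.4) were the 4 highest by either length, but their order was not the same, since *TOPBP1* came first per merged kb. *RAD9A* (9.17 to 9.91) and *RAD1* (8.50 to 8.69) followed, and their order too depended on the length used. *ATM* (5.50 to 6.36), *ATRIP* (5.13 to 5.69) and *ATR* (4.56 to 5.26) were neighbours whose libraries overlapped per kb of transcript, *ATM* with *ATRIP* and *ATRIP* with *ATR*. *HUS1* (3.79 to 4.13) was last by either length. In 11H1 *WEE1* stood at 65.2 to 66.6 CPM per kb of transcript, above *CHEK2* at 30.2 to 31.9, and it was above *CHEK2* per merged kb as well. In 14B5 that held per kb of transcript only (43.4 to 49.4 against 32.4 to 34.8).

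Within a library, ratios of members do not depend on its depth, and their fold differences between groups do not depend on the lengths. The ratio of *CHEK1* to *CHEK2*, in CPM per kb of transcript, was 2.13, 2.10 and 2.27 in WT, 2.61, 2.79 and 2.76 in 11H1 and 3.33, 2.94 and 2.88 in 14B5. No KO library reached down to WT. Inside the clamp, *RAD9A* to *RAD1* was 1.06 to 1.17 in WT, 1.64 to 1.92 in 11H1 and 0.961 to 1.05 in 14B5, so the clones lay on either side of WT. *RAD1* to *HUS1* was 2.06 to 2.29 in WT and 2.08 to 2.17 in 11H1, and 2.84 to 3.23 in 14B5. *ATR* to *ATM* was 0.741 to 0.836 in WT, 0.735 to 0.828 in 11H1 and 0.909 to 0.965 in 14B5. *ATRIP* to *ATR* overlapped between all groups, at 0.975 to 1.25 in WT, 1.01 to 1.18 in 11H1 and 0.905 to 1.05 in 14B5. These ratios are given as descriptions and were not tested.

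**Figure D3:**
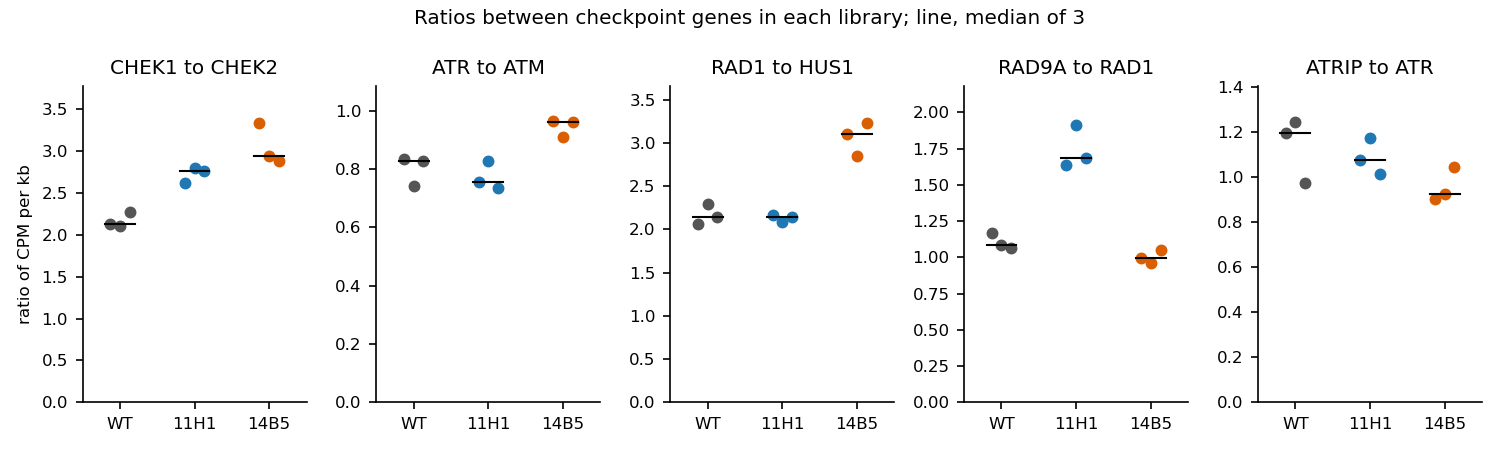
Ratio of CPM per kb of transcript between pairs of checkpoint genes (y axis, from 0) in each library (points), with the median of 3 (line). *CHEK1* to *CHEK2* is above WT in every KO library, whereas *RAD9A* to *RAD1* is raised in 11H1 alone and *RAD1* to *HUS1* in 14B5 alone.

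The genes that act beside the members were described by lists. Over all genes tested, 14.3% were higher and 17.7% lower in KO, 31.8% and 32.8% in 11H1, and 24.9% and 28.7% in 14B5, with the medians near 0 given above. Of 6 genes that load the clamp or act with it (*RHNO1*), 5 were higher in KO and none lower (median log2FC 0.36). They were led by *RFC3* (log2FC 0.48, adjusted p = 0.00765 in edgeR) and *RFC2* (0.43, adjusted p = 0.0267), subunits of the loader. In 14B5 all 6 were higher, and 5 of the 6 were lower in 11H1 than in 14B5, the direction that *RAD1* had. Of 7 genes that bring ATR to forks or link it to CHEK1, 4 were higher in KO and none lower (median log2FC 0.27), led by *CLSPN* (0.37, adjusted p = 0.0347 in edgeR), the adaptor through which ATR reaches CHEK1, and *RPA1* (0.33, adjusted p = 0.0234), which coats single-stranded DNA. In 14B5 all 7 were higher, and in 11H1 4 of 7.

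Of 12 genes of the ATM response to breaks, 5 were higher in KO and 1 lower (median log2FC 0.20). *H2AX*, the histone that ATM phosphorylates beside breaks, was at 107 ± 9.30 CPM (SD, n = 3) in WT, 179 ± 18.9 CPM in 11H1 and 216 ± 21.6 CPM in 14B5 (KO versus WT log2FC 0.89, adjusted p = 3.87e-04 in edgeR). *BRCA1* was also higher (0.37, adjusted p = 0.0105 in edgeR). *RAD50*, part of the complex that recruits ATM to breaks, was the lower one in KO, at −0.51 (adjusted p = 0.00573 in edgeR), and was lower in both clones. In 11H1 7 of the 12 were higher and 1 lower, and in 14B5 7 were higher and 3 lower.

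The relatives of ATM and ATR among the large kinases, with the proteins that stabilise them, mostly had the order of the clones that *ATM* had. Of 7, 6 were higher in 11H1, 2 in 14B5, near the 24.9% of all genes, where *TRRAP* was lower, and 5 were higher and 1 lower in 11H1 than in 14B5. In KO versus WT only *TTI1*, a stabiliser, passed (0.24, adjusted p = 0.00770 in edgeR).

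Of 11 genes of mitotic entry, on which CHEK1 and WEE1 act, 9 were higher in KO and none lower (median log2FC 0.33), against 14.3% and 17.7% of all genes. *PKMYT1*, the relative of WEE1 that also inhibits CDK1, was at 0.45 (adjusted p = 0.00248 in edgeR) and *CDK2* at 0.44 (adjusted p = 2.05e-04). *CDC25C* was at −0.12 in KO and was lower in 11H1 alone (−0.23). Of 5 genes that act on the turnover or dephosphorylation of checkpoint proteins, in either direction, *USP7* was higher in KO (0.25, adjusted p = 0.00475 in edgeR). It encodes a deubiquitinase that acts on claspin and on MDM2, and the other 4 genes did not pass. In 11H1 1 of the 5 was higher and 2 were lower, *FBXO6* (−1.11) and *FBXW11* (−0.29), which encode F-box proteins, and in 14B5 3 were higher and none lower.

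Genes induced by p53, which CHEK2 and ATM can activate, moved in both directions: of 21 tested, 5 were higher and 6 lower in KO (median log2FC 0.22), against 14.3% and 17.7% of all genes. *CDKN1A*, the CDK inhibitor p21, was at 7.11 ± 0.331 CPM (SD, n = 3) in WT, 30.3 ± 1.19 CPM in 11H1 and 22.4 ± 1.10 CPM in 14B5 (KO versus WT log2FC 1.89, adjusted p = 1.24e-05 in edgeR), and *BTG2*, an antiproliferative gene, was also higher (1.27, adjusted p = 1.68e-05). The death receptor gene *TNFRSF10B* was lower (−1.62, adjusted p = 3.18e-07 in edgeR), as was *CCNG1* (−0.72, adjusted p = 0.0179).

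Of 9 replication and proliferation genes 5 were higher in KO and 1 lower (median log2FC 0.32). Their summed level was 3291 to 3448 CPM in WT, 3757 to 3844 CPM in 11H1 and 4125 to 4200.2 CPM in 14B5, the order that *CHEK1* and *RAD1* had, and its part in their change was not tested. The single genes did not all have that order, since 5 of the 9 were lower and 2 higher in 11H1 than in 14B5. *MCM4*, a helicase subunit, was higher (0.45, adjusted p = 0.00594 in edgeR), as was *TOP2A* (0.36, adjusted p = 0.00503), and *MCM6* was lower (−0.41, adjusted p = 0.00729). The share of mitochondrial genes was highest in 11H1, where *WEE1* and *RAD9A* were highest too. In 14B5, where both genes were above WT, that share was 3.30% to 3.92%, against 3.54% to 6.03% in WT. With mitochondrial genes left out of the fit, the log2FC in 11H1 was 1.09 for *WEE1* and 0.76 for *RAD9A*. The part of the mitochondrial share in their levels was not tested.

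**Figure D4:**
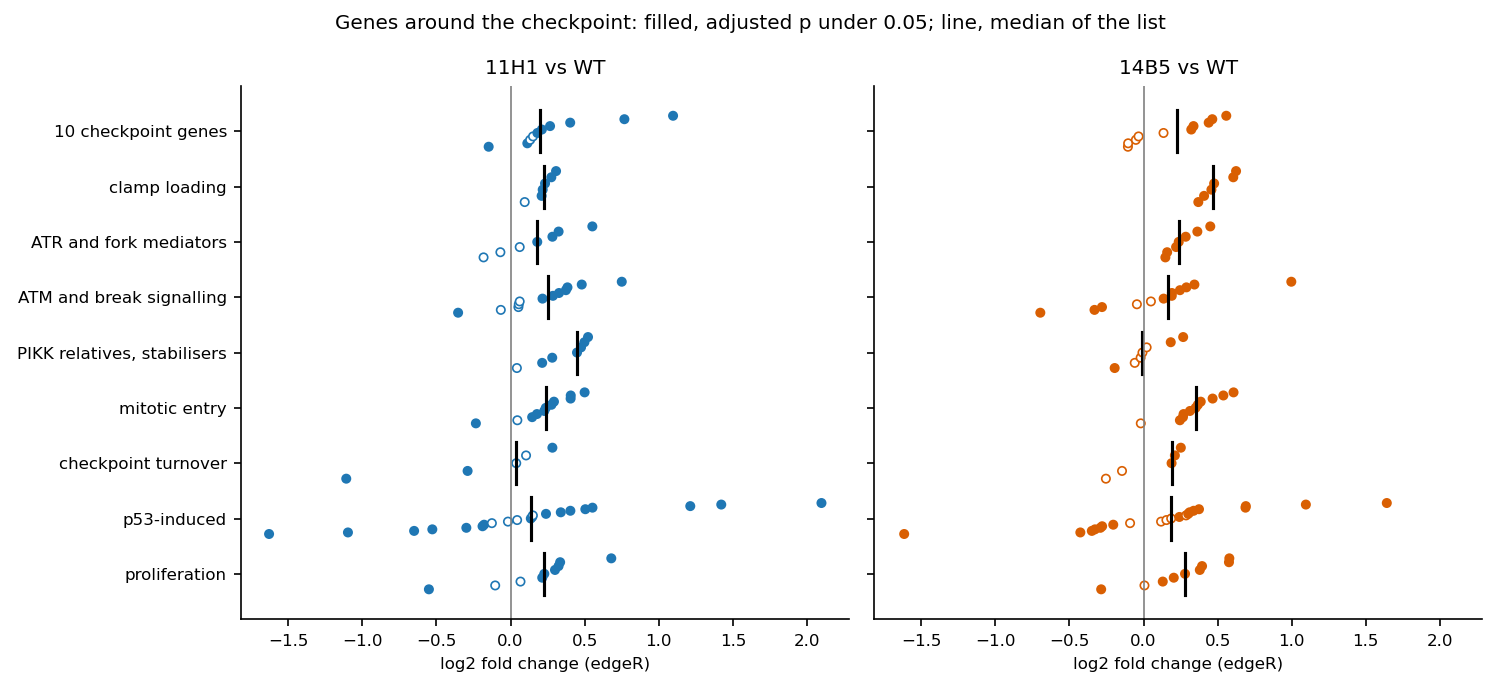
log2FC of single genes (points) in 11H1 (left) and 14B5 (right) against WT, for the 10 checkpoint genes and 8 lists around them (rows); filled points have an adjusted p under 0.05 and black lines are list medians. The kinase relatives have a median of 0.45 in 11H1 and −0.01 in 14B5, whereas the clamp loading list has 0.22 and 0.47.

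For each member called in KO, the genes with the most similar profile were searched among 9786 genes whose mean reached 10 CPM, by the root mean square difference of log2 CPM relative to the WT mean over the 9 libraries. Nearest to *TOPBP1* was *BRIP1*, a helicase that binds BRCA1 (0.0271), against a median over all genes of 0.331. Nearest to *CHEK1* were *CLCC1* (0.0296) and *RMND5A* (0.0331), to *RAD9A* *COX19* (0.0588) and *ERVK3-1* (0.0706), and to *WEE1* *NPL* (0.0589) and *HCP5* (0.0701). With 3 groups many profiles are alike, and the likeness is given as a description.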

How the data were processed

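The values, as the authors deposited them, are expected counts from RSEM, that is estimated counts in which reads matching several genes are divided, with no normalization. The submitters' processing notes name STAR 2.7.9a, Picard, RSEM and GRCh38; the annotation release, the version of RSEM and the use of strand are not given in the sources used here, and the labels and the methods name different library kits. Expected counts were rounded and fitted over the whole table with edgeR 4.0.16 (R 4.3.3): TMM, filterByExpr (minimum count 10), its quasi-likelihood test, and a threshold of 0.05 on p values adjusted (Benjamini-Hochberg) over all genes tested. The 6 KO libraries together and those of either clone were set against WT, and 11H1 against 14B5. All 6 KO libraries were used, whereas the study describes fewer and does not name the one left out. CPM used TMM-scaled library sizes; a count of 0 allows up to 3 counts, counting error only. Positions came from GENCODE v29, matched on identifiers without version (96.6% of genes). The members, lists and comparisons were chosen with earlier results of these data known, and the lists are from general knowledge. From each list up to 2 of the largest rises and falls among genes called in KO versus WT with no overlap of libraries were named, and values for *CDC25C*, *FBXO6*, *FBXW11* and *TRRAP* were added after they were seen. Some genes that this rule names are not reported here. Alternatives were DESeq2 1.42.0 (its test, and its size factors in edgeR), no filter on low counts, a block for replicate number, 3 groups in one fit, mitochondrial genes left out, neighbours within 5 Mb, and each library left out. Pairs of libraries within a group had a chi-square per gene of 5.32 to 58.4, where sampling noise alone gives about 1, so none was a copy.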

Additional observations from a re-analysis of the deposited data

Results flagged for a closer look

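Between the clones, tested directly in edgeR, 6 members differed. *ATM* (log2FC 0.354), *ATRIP* (0.24), *RAD9A* (0.429) and *WEE1* (0.522) were higher in 11H1 than in 14B5, and *RAD1* (−0.367) and *CHEK1* (−0.275) were lower, each with no overlap between the libraries of the 2 clones.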

How the results depend on the processing

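The number of members called in KO versus WT was 3 to 6 over the alternatives (3 with the replicate block, 6 in a fit of 3 groups, 3 to 5 with each library left out), and those called higher in KO included *WEE1*, *RAD9A* and *TOPBP1* in each of the 15. In 11H1 versus WT it was 5 to 8 with each library left out, the 5 coming without 11H1 replicate 1 (4 higher, 1 lower), and 7 or 8 otherwise. In 14B5 versus WT it was 5 or 6 and between the clones 6 or 7. In 14B5 versus WT *ATM* was the 1 lower call, without WT replicate 1. No call changed direction. Over all genes, KO versus WT gave 5471 calls and a fit of 3 groups 10245, since that fit takes the gap between the clones out of the error.

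The replicate numbers did not pair the libraries: the deviations of same-numbered libraries correlated between −0.584 and 0.338. With the replicate block, 3937 genes were called in KO versus WT, 10710 in 11H1, 7529 in 14B5 and 10099 between the clones; *CHEK1* was lost in KO versus WT (adjusted p = 0.0679), *RAD1* was lost in 11H1 (0.0522) and *ATRIP* gained there (0.0290), all in edgeR.

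The lowest member, *HUS1*, had at least 419 expected counts in each library, and its standard error in 11H1 versus WT was 0.07 on the log2 scale, against 0.05 for the better counted *RAD1*. Both clones share the editing step and no unedited clone was sequenced, so an effect of *DYRK1A* loss and one of clonal growth cannot be told apart in what the clones have in common.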
